A study of Homo sapiens with 4 samples.

Results

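The genes described here are 43 translation initiation and elongation factors, the proteins that bring the ribosome to the start codon of an mRNA and then move it along the coding sequence. Members were chosen by name, as the rows of the deposited count table whose symbol equals one on a fixed list, and each symbol matched 1 row of 56657. RNA was measured in TE5, an established human line from an esophageal squamous cell carcinoma that is labelled wild type apart from the hairpins. Lentivirus carried either a control short hairpin RNA (shControl, 2 libraries) or a hairpin against NUP153, a nucleoporin of the nuclear basket (shNUP153, 2 libraries). Both groups were infected, selected with puromycin and grown for 7 further days. Nothing in the labels tells whether a replicate was its own infection or culture. The p-values therefore reflect the spread of these libraries alone, which may be technical. How many different NUP153 hairpins were used is not stated in these sources.

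Initiation begins when eIF2 brings the initiator methionyl-tRNA to the small ribosomal subunit, together with eIF1, eIF1A, eIF5 and the large scaffold eIF3. The eIF4F complex, made of the cap-binding protein eIF4E, the scaffold eIF4G and the helicase eIF4A, recruits this assembly to the capped end of an mRNA, and the 4E-BP proteins block eIF4E when the kinase mTORC1 is inactive. In elongation eEF1A delivers aminoacyl-tRNAs, the eEF1B subunits recharge it with GTP, and eEF2 translocates the ribosome. Many elongation factor mRNAs, like those of ribosomal proteins, begin with a terminal oligopyrimidine (TOP) tract, a C followed by pyrimidines, through which mTORC1 and LARP1 control their translation.

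The start-site sequences of members with such a tract are shown so that members with and without a change can be compared by this feature. Each line gives 15 bases before and 15 bases from the RefSeq transcription start site (GRCh38.p14), 5′ to 3′ on the gene's strand, with the pyrimidine run that starts at the first transcribed base in capitals.
EEF1A1: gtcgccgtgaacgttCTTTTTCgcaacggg
EEF2: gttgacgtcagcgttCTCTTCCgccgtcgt
EEF1B2: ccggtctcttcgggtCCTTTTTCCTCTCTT
EIF3F: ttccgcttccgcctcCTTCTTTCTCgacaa
EIF3K: ttccgtttccaccacCTCTTCCTgttcccg
EIF2S3: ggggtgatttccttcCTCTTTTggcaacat
EIF4A2: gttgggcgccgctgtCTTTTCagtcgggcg
EIF4B: ttgcctcatccgggtCTTTTgcgttctctt
EIF3D: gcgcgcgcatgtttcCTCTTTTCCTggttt
EIF3M: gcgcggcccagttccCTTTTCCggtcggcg
These windows lie at chr6:73521018-73521047 (minus strand), chr19:3985449-3985478 (minus), chr2:206159880-206159909 (plus), chr11:7987322-7987351 (plus), chr19:38619173-38619202 (plus), chrX:24054941-24054970 (plus), chr3:186783562-186783591 (plus), chr12:53006441-53006470 (plus), chr22:36529152-36529181 (minus) and chr11:32583816-32583845 (plus), in the order of the lines. The run in EEF1B2 goes on to 16 bases. The motif searched, on the transcribed strand, was a C at the first transcribed base followed by at least 4 bases that are C or T. It stood at the start site of 10 of the 34 members with a RefSeq window, those shown, a share of 29.4%, against 5.14% of the 27305 genes with a window. Counted by window, it stood in 21.3% of the 47 windows of members and in 4.07% of all 35116. A match describes these letters only, and the start sites used in TE5 were not measured. Members without a RefSeq window could not be searched, so their absence from the lines tells nothing about their start.

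The libraries held 22606593 to 27396268 counts. NUP153 itself was at 149 and 142 CPM in shControl and at 67.9 and 81.9 CPM in shNUP153 (log2 fold change −0.96, SE 0.06, adjusted p = 1.051e-14, edgeR), lower in the libraries labelled as its knockdown. CPM are counts scaled to a common library size, here with the TMM method. Of 9 squamous epithelial markers, 8 averaged 1 CPM or more, with KRT14 the exception at 0.23 to 0.55 CPM. Their summed level was 1783 to 1850 CPM in shControl and 2200 CPM in both shNUP153 libraries. KRT17 was the single marker of the list that rose, from 745 and 724 CPM to 1252 and 1238 CPM, while 5 fell (SOX2, KRT5, KRT6A, DSP and PKP1, with KRT5 at a log2 fold change of −0.68) and TP63 and DSG3 did not pass. Leukocyte markers summed to 0.463 to 0.969 CPM in any library. Of 7 fibroblast markers, DCN and LUM had 0 counts in every library, and the list summed to 13.7 and 14.9 CPM in shControl and 17.4 and 17.5 in shNUP153, almost all from COL1A1. Endothelial markers summed to 12.3 and 11.1 CPM in shControl and 25.2 and 24.1 in shNUP153, mostly from CDH5, while PECAM1 had 0 to 3 counts and KDR 1 to 2 in a library. The part of these shifts in the results below was not tested.

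Most translation factor mRNAs that changed fell, by small amounts, and all members tested from the elongation group were among them. Of the 42 members that passed the low-count filter, 22 were lower and 6 higher in shNUP153 at an adjusted p under 0.05, and 14 did not pass. Among all 16817 tested genes, 17.4% were called lower and 15.0% higher (32.4% in either direction). The members' median log2 fold change was −0.11, against 0.005 over all tested genes, with a range from −0.43 to 0.41. The largest fold among called members was 1.34. Abundant genes leaned downward in this comparison: of 2348 tested genes with a mean of 100 CPM or more, 39.4% were called lower and 17.6% higher. Of the 31 members at that level, 17 were called lower and 3 higher. All members tested took 2.30% and 2.28% of the scaled counts in shControl and 2.05% and 2.07% in shNUP153. CPM are shares of a library's RNA, so a lower share and less RNA per cell, or fewer cells of a kind, cannot be told apart.

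For 35 of the 42 members the 2 groups were fully separated, 27 with both shNUP153 libraries below both shControl libraries and 8 with both above, where 64.4% of all tested genes were separated in this way. The count of falls depended on single libraries and on scaling. It was 10 without shNUP153 replicate 1, 14 without shNUP153 replicate 2, and 14 with total-count or upper-quartile scaling, and the count of rises was 2 without shNUP153 replicate 1. With total-count scaling 62.8% of the calls over all genes were higher, against 46.3% with TMM. The TMM factors were 0.974 and 0.982 in shControl and 1.03 and 1.02 in shNUP153. With total-count scaling the members' counts were 7 higher and 14 lower. The share of all tested genes called lower dropped too, from 17.4% with TMM to 12.6% with total-count and 13.9% with upper-quartile scaling. That share was also smaller when either shNUP153 library was left out. Calls held under all 14 alternatives run for 10 members that fell (EEF1A1, EEF1D, EEF2, EIF1AX, EIF3B, EIF3E, EIF3K, EIF3L, EIF4E and PABPC1) and 2 that rose (EIF1 and EIF4A2). No called member changed sign under any of them.

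**Figure D1:**
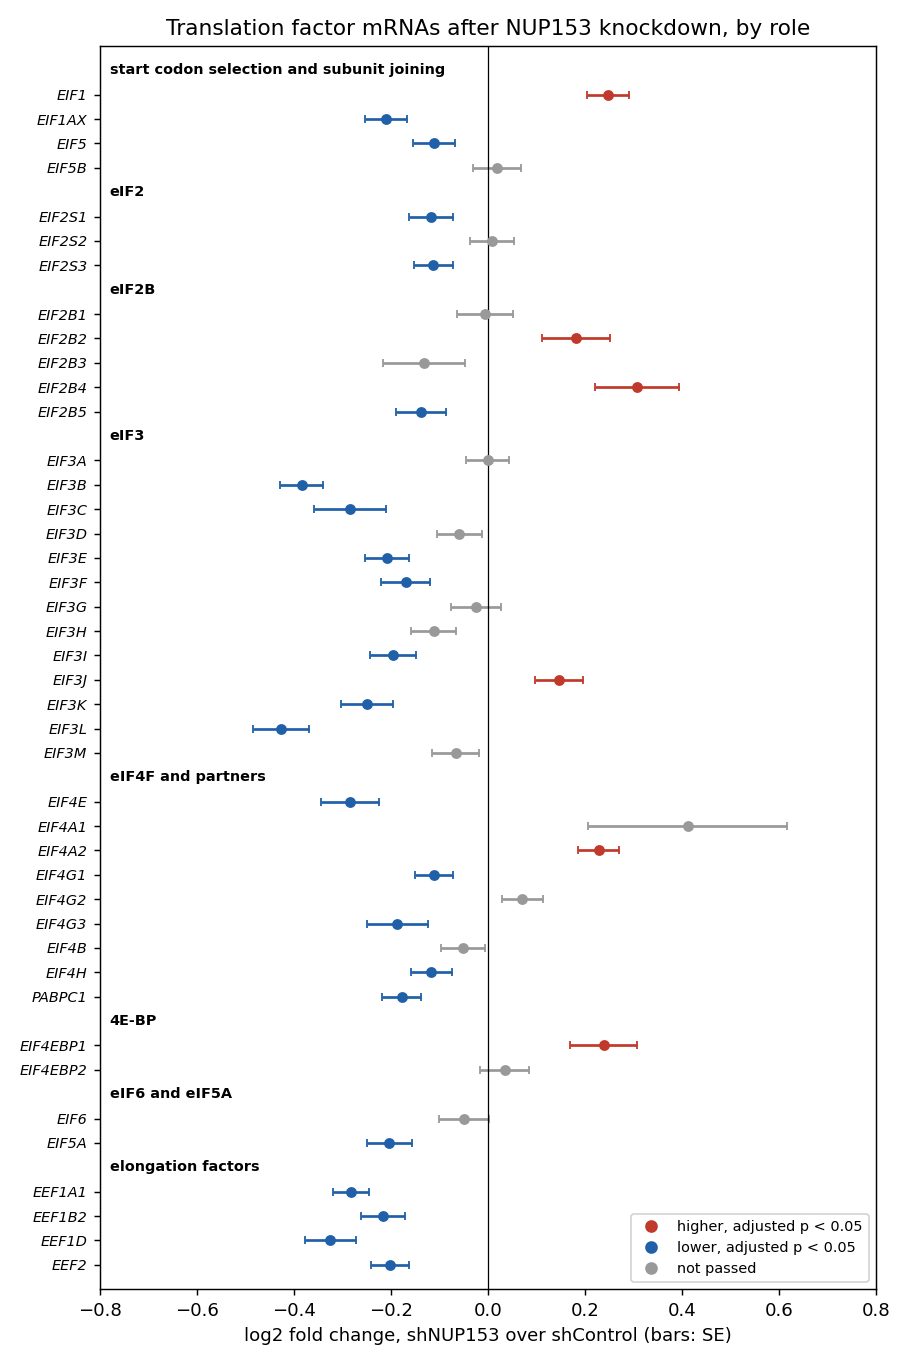
Log2 fold change (x axis, shNUP153 over shControl) of the 42 tested translation factors, grouped by role, with bars of 1 SE; red and blue points passed edgeR's test upward or downward and grey points did not. Blue points outnumber red ones 22 to 6, the 4 elongation factors lie between −0.33 and −0.20, and EIF4A1 has the widest bar.

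The elongation factors fell in 4 of 4 tested cases. Of all tested genes 17.4% were called lower, and 39.4% of those with a mean of 100 CPM or more. EEF1A1, which delivers aminoacyl-tRNAs and was the most abundant member, was at 6133 and 5955 CPM in shControl and 4909 and 5025 CPM in shNUP153. Both knockdown libraries lay below both control libraries, 1.22-fold lower on the fit (log2 fold change −0.28, SE 0.04, edgeR adjusted p = 2.391e-07). EEF2, the translocase, was at 2338 and 2417 CPM against 2076 and 2059 CPM, a fall of 1.15-fold (adjusted p = 1.137e-04, edgeR). EEF1B2, a nucleotide exchange subunit, went from 401 and 387 CPM to 329 and 350 CPM (1.16-fold lower, edgeR adjusted p = 2.935e-04). EEF1D, another exchange subunit, had the steepest fall of the group, from 127 and 135 CPM to 107 and 103 CPM (1.25-fold, edgeR adjusted p = 7.438e-06). Without shNUP153 replicate 1 the adjusted p of EEF1B2 was 0.0521. Of the exons of EEF1D, 34% of bases are also exons of genes on the opposite strand, the largest share of them from a gene with 20 to 28 counts. The summed level of the 4 factors was 8999 and 8895 CPM in shControl and 7421 and 7536 CPM in shNUP153.

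EEF1G, the remaining eEF1B subunit and known as an abundant mRNA, was listed at 0 counts in all 4 libraries and was not tested. In GENCODE 29, 99.9% of its exon bases, on chromosome 11, are also exons of AP002990.1, a gene on the same strand. Counts for AP002990.1 were 301 and 316 in the control libraries and 251 and 244 in the knockdown libraries (log2 fold change −0.34, SE 0.11, edgeR adjusted p = 0.018). Its level cannot stand for that of EEF1G, since the sources used here do not say how reads shared by overlapping genes were counted. Processed copies of EEF1A1 took few reads: 39 rows named as its pseudogenes held 0.505% as many counts as EEF1A1. The largest of them, EEF1A1P5, was at 29.6 and 28.7 CPM in shControl and 20.7 and 19.5 CPM in shNUP153, and fell by 0.53 on the log2 scale (SE 0.08, edgeR adjusted p = 3.989e-06), and its reads may come in part from EEF1A1.

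eIF3, the largest initiation factor, fell in 7 of 13 subunits and rose in 1, with 5 that did not pass. Its median log2 fold change was −0.17. Over all tested genes 17.4% were called lower and 15.0% higher, and 39.4% of those with a mean of 100 CPM or more were called lower. EIF3C, EIF3K and EIF3L averaged less than that over the libraries, and the other subunits more. Of the subunits above that level, EIF3B, EIF3E, EIF3F and EIF3I were called lower and EIF3J higher. EIF3B, the scaffold of the b, g and i module, was at 623 and 650 CPM in shControl and 478 and 497 CPM in shNUP153 (log2 fold change −0.38, SE 0.04, edgeR adjusted p = 9.17e-09), the smallest p of any member. EIF3L went from 76.9 and 77.4 CPM to 57.8 and 56.9 CPM (−0.43, SE 0.06, edgeR adjusted p = 4.042e-07), the largest fall of any member, 1.34-fold. Replicates of EIF3L differed by less than 1 CPM while the groups were about 20 CPM apart. In GENCODE 29, 41.1% of the exon bases of EIF3L are shared on the same strand with AL022311.1, which had 24 to 34 counts per library, and 10.7% lie on the opposite strand of ANKRD54, which had 399 to 557.

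EIF3K, a partner of EIF3L at one end of the complex, was at 108 and 103 CPM against 88.7 and 88.0 CPM (−0.25, edgeR adjusted p = 4.072e-04). EIF3E was at 295 and 289 CPM in shControl and 251 and 254 CPM in shNUP153 (−0.21, edgeR adjusted p = 4.319e-04). EIF3I, the WD-repeat subunit bound to EIF3B, fell 1.15-fold and EIF3F 1.13-fold. Leaving out shNUP153 replicate 1 ended the call for EIF3I (adjusted p = 0.0547), and that for EIF3F was lost under 4 alternatives (adjusted p up to 0.139). EIF3C, one of the central subunits, was called lower at 43.1 and 40.1 CPM against 32.4 and 35.9 CPM, though not without shNUP153 replicate 1 (adjusted p = 0.15). EIF3C has a near-identical copy on chromosome 16, EIF3CL, with 7 to 13 counts per library, and reads that fit both copies could have been split or dropped, so the value of EIF3C is uncertain.

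The other subunits of eIF3 differed less between groups. EIF3A, the largest subunit, was at 476 and 448 CPM in shControl and 455 and 468 CPM in shNUP153, so the groups overlapped (log2 fold change −0.001, SE 0.04). EIF3D, which can itself bind the cap, was at −0.06, EIF3G at −0.02, EIF3M at −0.07 and EIF3H at −0.11, and none passed, though EIF3H did without shControl replicate 2 (adjusted p = 0.0187). EIF3D, EIF3M and EIF3H had both shNUP153 libraries below both shControl libraries, as did 32.2% of all tested genes. EIF3J, a loosely bound subunit that acts at the mRNA entry channel, rose from 144 and 140 CPM to 155 and 160 CPM (0.15, SE 0.05, edgeR adjusted p = 0.0204), a call lost under 4 alternatives (adjusted p up to 0.246). The 8 subunits of the structural octamer (a, c, e, f, h, k, l and m) all had log2 fold changes below 0, from −0.43 to −0.001. Of them 5 were called lower, where 17.4% of all tested genes were, and 39.4% of those with a mean of 100 CPM or more. Among the octamer subunits at that level, EIF3E and EIF3F were called lower and EIF3A, EIF3H and EIF3M did not pass. The sign of EIF3A turned under 5 alternatives.

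The factors of start codon selection went in different directions. EIF1, which holds the small subunit open for scanning and guards against wrong start codons, rose from 499 and 516 CPM to 600 and 605 CPM (1.19-fold; log2 fold change 0.25, SE 0.04, edgeR adjusted p = 2.147e-05). EIF1AX, which codes for eIF1A, the partner of eIF1 on the small subunit, fell from 570 and 554 CPM to 481 and 491 CPM (1.16-fold; −0.21, SE 0.04, edgeR adjusted p = 2.065e-04). For both genes the knockdown libraries lay on one side of the control libraries. EIF5, the GTPase-activating protein of eIF2, was at 411 and 402 CPM against 377 and 376 CPM and passed narrowly (−0.11, edgeR adjusted p = 0.0492), a call lost under 10 of 14 alternatives. EIF5B, which joins the ribosomal subunits, was at 0.02 (SE 0.05, adjusted p = 0.821, edgeR) and its groups overlapped.

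Among the eIF2 subunits, EIF2S1 (alpha, the subunit that stress kinases phosphorylate) and EIF2S3 (gamma, which binds GTP and the initiator tRNA) were called lower and EIF2S2 (beta) did not pass. EIF2S1 was at 280 and 273 CPM in shControl and 253 and 257 CPM in shNUP153 (log2 fold change −0.12, edgeR adjusted p = 0.0438). EIF2S3, the most abundant of the 3, was at 1143 and 1137 CPM against 1054 and 1053 CPM (−0.11, edgeR adjusted p = 0.0288). The drops were about 8%, and the calls were lost under 9 and 6 alternatives. EIF2S2 was at 346 and 356 CPM against 344 and 362 CPM, so its groups overlapped.

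The subunits of eIF2B, the exchange factor that recharges eIF2 with GTP, split. EIF2B4, a regulatory subunit, rose from 19.1 and 20.5 CPM to 25.0 and 24.1 CPM (1.24-fold; log2 fold change 0.31, SE 0.09, edgeR adjusted p = 0.00562; 0.103 without shNUP153 replicate 1). EIF2B2, another regulatory subunit, was called higher at 38.4 and 36.1 CPM against 42.6 and 41.7 CPM (0.18, edgeR adjusted p = 0.0452), and the call was lost under 7 alternatives. EIF2B5, the catalytic subunit, was called lower at 136 and 137 CPM against 119 and 129 CPM (−0.14, edgeR adjusted p = 0.0379), also lost under 7. EIF2B3 (−0.13) and EIF2B1 (−0.01) did not pass. Of the exons of EIF2B2, 23.6% of bases overlap genes on the opposite strand, with at most 11 counts each.

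In the cap-binding group, 5 of 9 members fell and 1 rose, where 17.4% of all tested genes were called lower and 15.0% higher. Among tested genes with a mean of 100 CPM or more, 39.4% were called lower. EIF4E, EIF4G3 and EIF4A1 averaged less than that, and the other members of the group more. Of those above that level, EIF4G1, EIF4H and PABPC1 were called lower and EIF4A2 higher. EIF4E, the cap-binding protein, went from 68.4 and 65.7 CPM to 55.2 and 54.7 CPM (1.22-fold; log2 fold change −0.28, SE 0.06, edgeR adjusted p = 3.307e-04). PABPC1, which binds the poly(A) tail and eIF4G, went from 2084 and 2037 CPM to 1815 and 1826 CPM (1.13-fold; −0.18, SE 0.04, edgeR adjusted p = 5.122e-04). In both genes the spread within a group was small beside the gap between groups. EIF4G1, the main scaffold, was at 1966 and 2010 CPM against 1839 and 1840 CPM (−0.11, edgeR adjusted p = 0.0258), and its paralog EIF4G3 at 57.5 and 54.6 CPM against 48.8 and 49.6 CPM (−0.19, edgeR adjusted p = 0.0211). EIF4H, a helicase cofactor, fell 1.08-fold (edgeR adjusted p = 0.031). The calls for EIF4G1, EIF4G3 and EIF4H were each lost under 6 alternatives, among them total-count and upper-quartile scaling and leaving out either shNUP153 library.

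EIF4A2, a paralog of the eIF4A helicase, rose, from 484 and 487 CPM to 566 and 571 CPM (1.17-fold; log2 fold change 0.23, SE 0.04, edgeR adjusted p = 6.28e-05). The replicates of EIF4A2 were within 5 CPM of each other in each group. EIF4A1, in most cell lines the more abundant helicase mRNA, was counted at only 3.29 and 2.36 CPM in shControl and 3.86 and 3.58 CPM in shNUP153 (0.41, SE 0.21, adjusted p = 0.127, edgeR; 0.0306 without shControl replicate 1). In GENCODE 29, 48.6% of the exon bases of EIF4A1, on chromosome 17, are exons of other genes on the same strand, among them the readthrough gene SENP3-EIF4A1 with 1 to 10 counts. As for EEF1G, the deposited counts do not serve as a measure of this mRNA. EIF4G2, an eIF4G relative that lacks the eIF4E-binding part, was at 917 and 857 CPM against 938 and 925 CPM (0.07, adjusted p = 0.213, edgeR) and passed upward with total-count scaling (adjusted p = 0.0112), upper-quartile scaling (0.0352) and without shControl replicate 1 (0.0253). EIF4B, the other helicase cofactor, was at 308 and 309 CPM against 292 and 303 CPM (−0.05) and did not pass.

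EIF4EBP1, which codes for the eIF4E inhibitor 4E-BP1, rose from 41.2 and 44.1 CPM to 53.1 and 47.6 CPM (1.18-fold; log2 fold change 0.24, SE 0.07, edgeR adjusted p = 0.00726). The rise was uneven between the knockdown libraries, and without shNUP153 replicate 1 it did not pass (0.15, adjusted p = 0.29). EIF4EBP2, its paralog, was at 179 and 163 CPM against 176 and 174 CPM and its groups overlapped. EIF5A, which carries hypusine and relieves stalled ribosomes, fell from 482 and 528 CPM to 431 and 446 CPM (1.15-fold; −0.20, SE 0.05, edgeR adjusted p = 6.857e-04; 0.0524 without shNUP153 replicate 1). EIF6, which keeps free large subunits from joining, was at 152 and 161 CPM against 158 and 145 CPM and did not pass (−0.05).

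**Figure D2:**
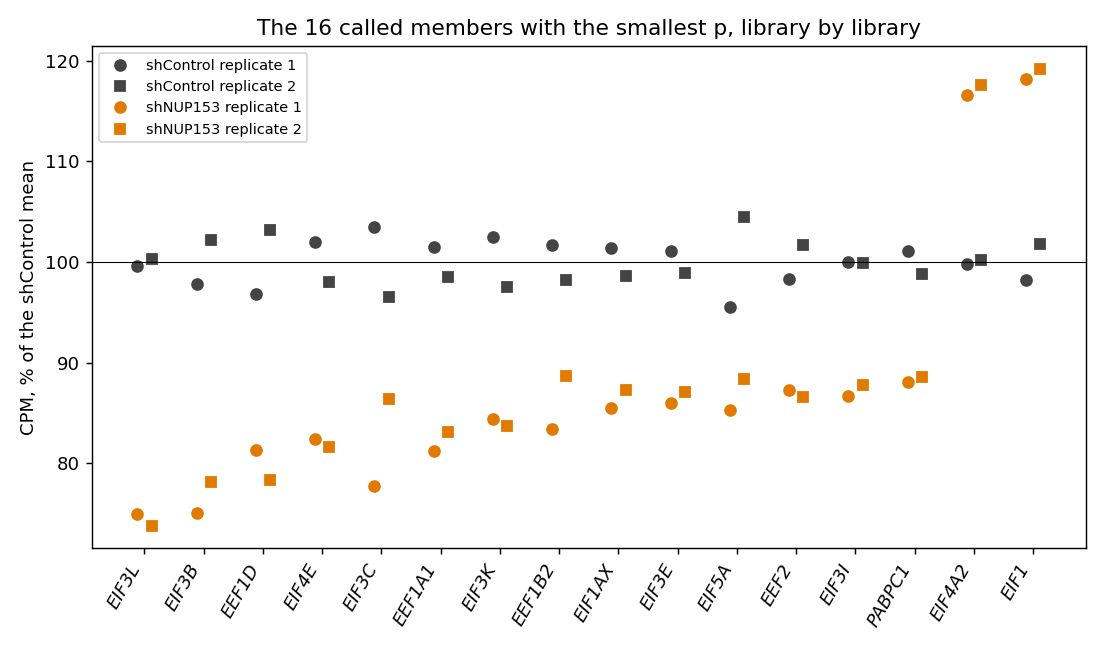
Level in each library (y axis, CPM as a percent of the shControl mean) of the 16 called members with the smallest p; grey marks are shControl, orange marks shNUP153, circles replicate 1 and squares replicate 2. In all 16 the orange pair is clear of the grey pair, below it for 14 genes from EIF3L to PABPC1 and above it for EIF4A2 and EIF1. Choosing members by small p favours such separation, and 64.4% of all tested genes were separated in this way.

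Ratios of counts within a library do not depend on library scaling. The log2 ratio of EIF4EBP1 to EIF4E, an inhibitor and its target, was −0.73 and −0.57 in shControl and −0.06 and −0.20 in shNUP153, a difference of 0.52 (0.45 to 0.60 when any 1 library was left out). EIF4EBP1 thus had 0.636 counts per count of EIF4E in shControl and 0.914 in shNUP153. The ratio of EIF4G1 to EIF4G2 was 1.10 and 1.23 on the log2 scale in shControl and 0.97 and 0.99 in shNUP153, a difference of −0.18 (−0.12 to −0.25 when any 1 library was left out, the ends being without shControl replicate 2 and 1). EIF4EBP1 to EIF4EBP2 differed by 0.20, by 0.09 without shControl replicate 1, 0.13 without shNUP153 replicate 1 and 0.31 without shControl replicate 2. EIF4G1 to EIF4G3 differed by 0.08, by 0.02 without shControl replicate 1 and 0.13 without shControl replicate 2, so the sizes of these differences rest on single libraries. In these 4 pairs the groups did not overlap, and the exact permutation test, two-sided, gave p = 0.333 for each, the smallest it can give with 2 libraries a group, so none can pass. For EIF4A1 to EIF4A2 the difference was 0.19 (exact permutation p = 0.667), and it rests on an EIF4A1 value that is not a usable measure. These 5 ratios were the only ones computed.

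**Figure D3:**
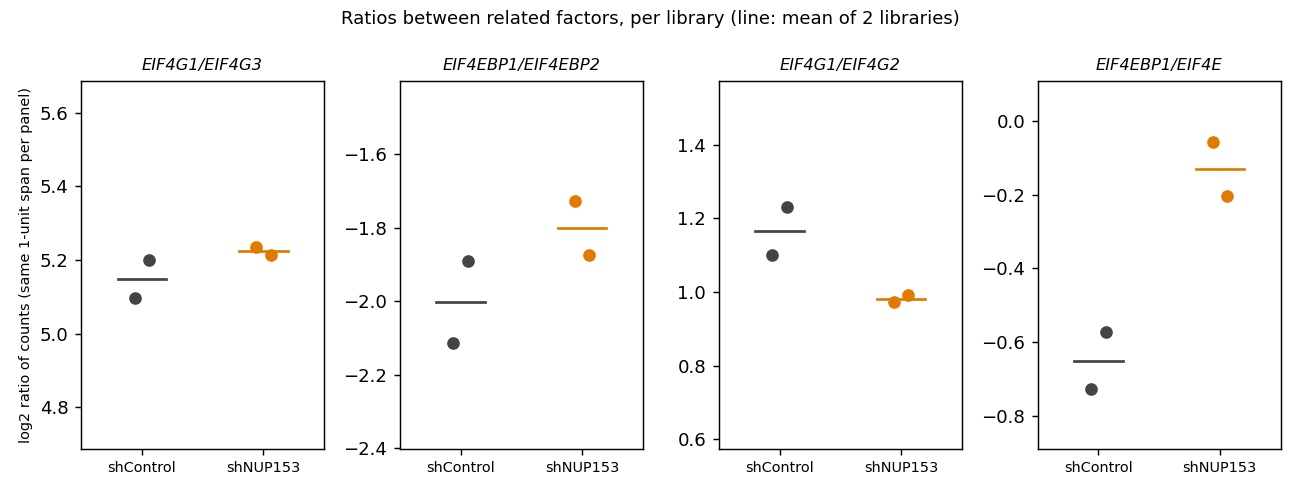
Log2 ratio of counts (y axis, a span of 1 unit in each panel) of 4 pairs of related factors in each library, with a line at the mean of each group of 2. The EIF4EBP1/EIF4E panel has the widest gap, from means of −0.65 in shControl to −0.13 in shNUP153.

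The known TOP mRNAs among the members, 11 genes on a list from general knowledge, had 10 tested members. Of these 7 fell and 0 rose (EEF1A1, EEF1B2, EEF1D, EEF2, EIF3E, EIF3F and PABPC1), with a median log2 fold change of −0.19. Over all tested genes 17.4% were called lower and 15.0% higher. Each tested TOP member averaged above 100 CPM in both groups. Of all tested genes with a mean of 100 CPM or more, 39.4% were called lower. The 32 members outside the TOP list had 15 that fell and 6 that rose, with a median of −0.09. They include all 11 tested members with a mean under 100 CPM. EIF4B, EIF3A and EIF3H, also on the TOP list, did not pass. By the start-site sequences shown above, 6 of the 10 members with a pyrimidine run fell and 1, EIF4A2, rose (median −0.14). EIF3K, EIF2S3, EIF4A2, EIF3D and EIF3M carry a run but are not on the TOP list. EEF1D, EIF3E, PABPC1, EIF3A, EIF3H and EEF1G are on the TOP list but not among the lines shown, for want of a window or of a run. Of the 23 tested members with a window and no run, 12 fell and 4 rose (median −0.11). Members without a RefSeq window are in neither group, among them EIF3L, which had the largest fall of any member. EIF4B carries a run yet was at −0.05, and EIF4A2 carries one and rose, so members with a run did not all move alike. No test was made of the difference between these groups.

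Levels per length were compared in shControl, as CPM per kilobase of the longest principal transcript in GENCODE 29. EEF1A1 led with 1361 CPM per kilobase, followed by EEF2 at 751, PABPC1 at 591 and EIF2S3 at 399. EIF4G2 was left out of this order because its principal transcript is annotated as incomplete at the end. On that transcript of 1969 bases it was at 450 CPM per kilobase, which would place it above EIF2S3. EEF1G and EIF4A1 could not be placed. EEF1A1 and EEF2 kept the first ranks in shNUP153, at 1119 and 653 CPM per kilobase, and PABPC1 followed at 522. Within eIF3 the level ran from 13.2 CPM per kilobase for EIF3C to 208 for EIF3B, with EIF3E at 189, EIF3I at 141, EIF3G at 122 and EIF3K at 122. EIF3G and EIF3K did not differ beyond their spread. For EIF3C, EIF3F and EIF4E (5.82 CPM per kilobase) the value depends on the annotated length or on a copy, since the principal transcripts of EIF3F and EIF4E are 7540 and 11523 bases long and the isoform used in TE5 was not measured.

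Of the genes that regulate these factors, EIF2AK2, PPP1R15A, PPP1R15B and MKNK2 had larger fold changes than any called member. Among 6 genes for eIF2 kinases and eIF2 phosphatase subunits, 3 rose and 2 fell. Over all tested genes 15.0% were called higher and 17.4% lower. EIF2AK2, which codes for PKR, a kinase that senses double-stranded RNA and is itself induced by interferon, fell from 297 and 310 CPM to 201 and 192 CPM (1.55-fold; log2 fold change −0.63, SE 0.05, edgeR adjusted p = 4.54e-13). PPP1R15A, which codes for GADD34 and directs a phosphatase to eIF2 alpha, rose from 96.4 and 94.0 CPM to 152 and 154 CPM (1.61-fold; 0.69, SE 0.05, edgeR adjusted p = 4.54e-13). PPP1R15B, its constitutive counterpart, rose 1.35-fold, from 98.0 and 101 CPM to 137 and 132 CPM (edgeR adjusted p = 3.366e-08). These are opposite signs for a kinase and for the phosphatase subunits, and all 3 calls held under every alternative run. EIF2AK3 (PERK) was called higher at 0.23 (edgeR adjusted p = 0.0465) and EIF2AK1 (HRI) was at 0.01. The EIF2AK3 call was close to the threshold and was not followed through the alternatives. EIF2AK4 (GCN2), which senses uncharged tRNA, was at 83.5 and 80.0 CPM against 73.0 and 73.4 CPM (−0.16, edgeR adjusted p = 0.0285), lost under 7 alternatives.

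Of 13 genes of the mTORC1, MNK and S6 kinase input, 4 were called higher (30.8%) and 2 lower (15.4%). Over all tested genes the shares were 15.0% and 17.4%. MKNK2, which codes for the eIF4E kinase MNK2, rose from 82.6 and 84.5 CPM to 123 and 124 CPM (1.48-fold; log2 fold change 0.57, SE 0.05, edgeR adjusted p = 1.192e-10). MLST8, a subunit of the mTOR complexes, fell 1.24-fold and EEF2K, the kinase that inhibits eEF2, fell 1.22-fold (edgeR adjusted p = 6.078e-04). MTOR itself was at 0.06, RPTOR at −0.11 and the kinase gene RPS6KB1 at 0.02, and none of the 3 passed. TSC1 was called higher at 0.19 (edgeR adjusted p = 0.043) and TSC2 at 0.16 (edgeR adjusted p = 0.0254). LARP1, which binds TOP mRNAs, was called higher at 0.11, close to the threshold (edgeR adjusted p = 0.0494). The calls for TSC1, TSC2 and LARP1 were not followed through the alternatives.

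Other initiation factors and paralogs had 8 falls (40.0%) and 3 rises (15.0%) in 20 tested genes, with a median of −0.11. Over all tested genes 17.4% fell and 15.0% rose. NCBP1, the large subunit of the nuclear cap-binding complex, fell 1.26-fold (edgeR adjusted p = 5.539e-06), as did EIF2D, an alternative tRNA-delivery factor (2.138e-05). EIF5A2, the paralog of EIF5A, rose 1.27-fold, from 32.8 and 31.5 CPM to 40.9 and 40.6 CPM (edgeR adjusted p = 2.79e-04). Among other elongation and termination genes, 2 of 15 tested rose and 2 fell, no larger shares than the 15.0% and 17.4% over all tested genes. EEF1A2, the paralog of EEF1A1 known from muscle and neurons, was at 207 and 223 CPM in shControl and at 262 and 285 CPM in shNUP153 (1.27-fold higher, edgeR adjusted p = 1.019e-06). EEF1A1 and EIF5A, the paralogs of these 2, fell by 0.28 and 0.20 on the log2 scale. GSPT1, the release factor GTPase, was called lower, 1.13-fold (edgeR adjusted p = 0.00246), lost with total-count scaling (0.0565) and without shNUP153 replicate 1 (0.0599). DPH5, an enzyme of diphthamide synthesis on eEF2, fell 1.22-fold and missed the threshold without shNUP153 replicate 1 (adjusted p = 0.123).

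**Figure D4:**
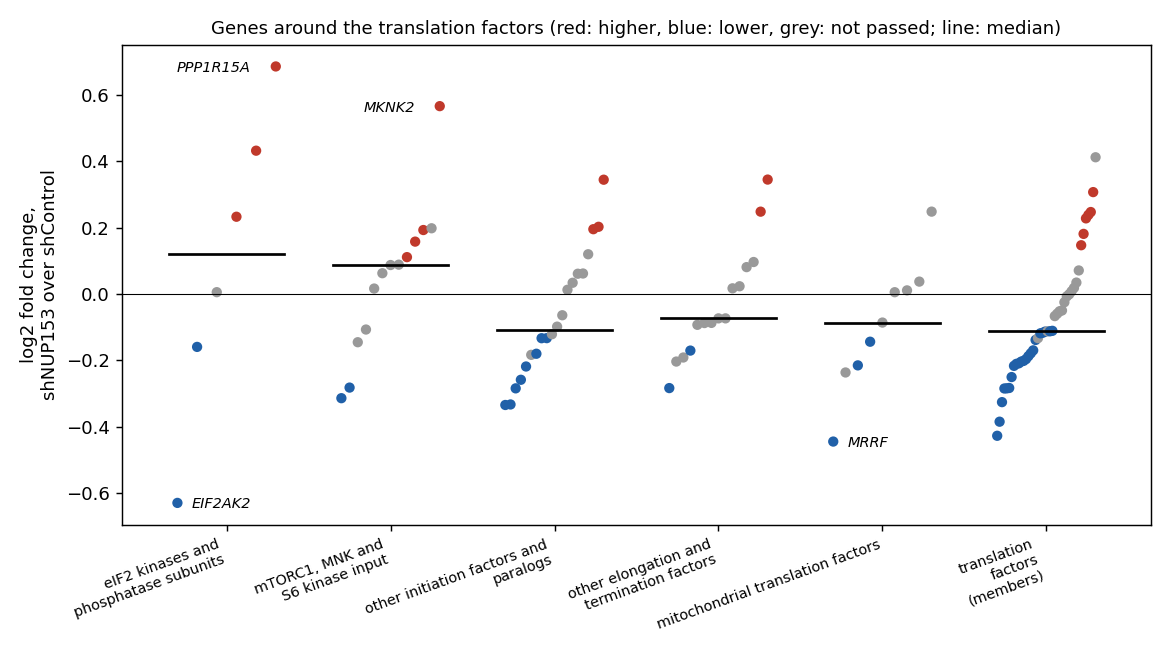
Log2 fold change (y axis, shNUP153 over shControl) of each tested gene in 5 lists around the translation factors and of the translation factors themselves; red points passed upward, blue downward and grey did not, and lines are list medians. EIF2AK2 at −0.63, PPP1R15A at 0.69, MKNK2 at 0.57 and the mitochondrial factor MRRF at −0.44 lie beyond the range of the called factors, −0.43 to 0.31.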

How the data were processed

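Libraries were made from total RNA, per the labels. The authors deposited 1 table of raw counts per Ensembl gene, whole numbers under a name that says FPKM. Per the submitters' processing notes, kallisto, DESeq2, Bowtie2 and deepTools were used with build hg19, with no role or version; the counter, its annotation and its use of strand are not given. Fold changes and p-values deposited beside the counts were not used, and 0 columns of sample values were left out.

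Members, lists and tests were chosen with earlier results of these data known. Of 56657 rows, 45 gene IDs were listed more than once and the dropped repeats held 0 counts. Genes were kept by filterByExpr (minimum count 10, minimum total 15), leaving 16817. Differences were tested with edgeR 4.0.16 (R 4.3.3), quasi-likelihood, TMM scaling, 2 libraries against 2, two-sided, Benjamini-Hochberg over all tested genes, threshold 0.05, leaving 2 residual degrees of freedom. The standard error is the log2 fold change over the root of its F statistic. Values in every library go to NUP153, the 12 members with the smallest p, the largest rise and fall of each role group and the genes of 5 ratios; pathway lists name up to 3 genes by p, those past 1.5-fold, EIF2AK2 and EIF2AK4. Others, such as LARP1, MTOR and EIF2AK3, were named after their values were seen. Alternatives were DESeq2 1.42.0, limma 3.58.1 on log2(CPM + 1) and log2(CPM + 0.1), other scalings, filters, variance models, a replicate block and leaving out each library. Replicates differed by more than sampling noise: chi-square per gene was 3.57 in shControl and 3.09 in shNUP153 for genes with 20 or more counts. Exon overlaps and transcript lengths came from GENCODE 29 (GRCh38), matched by gene ID, and start-site windows from RefSeq, matched by symbol for 34 of 43 members.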

Additional observations from a re-analysis of the deposited data

How the results depend on the processing

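The count of members lower in shNUP153, 22, was 14 with total-count scaling and 14 with upper-quartile scaling, and 10 to 23 when 1 library was left out. The count of members higher, 6, ranged from 2 to 8 when 1 library was left out. Over all genes the 5448 calls were 3556 with DESeq2 and 3072 to 5201 when 1 library was left out. Of all tested genes 17.4% were called lower with TMM, 12.6% with total-count scaling and 13.9% with upper-quartile scaling. The cause of these shifts was not tested. The log2 ratio of EIF4A1 to EIF4A2 differed by −0.055 to 0.429 when 1 library was left out, turning sign without shControl replicate 2, and the other 4 ratios kept their sign when any 1 library was left out. A lone library in a group was assumed to vary like the other group.

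Members that had not passed changed sign as follows. With total-count scaling EIF2B1 was at 0.056, EIF3A at 0.062, EIF3D at 0.004, EIF3G at 0.039, EIF4B at 0.011 and EIF6 at 0.014. With upper-quartile scaling EIF2B1 was at 0.036, EIF3A at 0.042 and EIF3G at 0.018, and after filtering on a mean of 5 CPM they were at 0.019, 0.025 and 0.001. EIF2S2 was at −0.003 with no filter on low counts. When 1 library was left out the range was −0.056 to 0.085 for EIF5B, −0.03 to 0.041 for EIF2S2, −0.066 to 0.043 for EIF2B1, −0.051 to 0.04 for EIF3A, −0.074 to 0.018 for EIF3G, −0.035 to 0.095 for EIF4EBP2 and −0.115 to 0.008 for EIF6.

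Same-numbered libraries did not deviate together (r = −0.0102 over 16817 genes). With 2 libraries a group this is a single correlation, and it cannot tell whether they shared an infection, a culture or a batch. With the replicate block 5 members were higher and 20 lower, and 5465 genes were called in all.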

Other observations

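Of 9 tested genes for factors of mitochondrial translation, which serve the ribosomes inside mitochondria, 3 fell (33.3%) and 0 rose. Over all tested genes 17.4% were called lower and 15.0% higher, 32.4% in either direction. The median log2 fold change of the list was −0.09. MRRF, which recycles mitochondrial ribosomes, fell from 131 and 128 CPM to 97.0 and 93.3 CPM (1.36-fold; −0.44, SE 0.05, edgeR adjusted p = 2.05e-08). TUFM, the mitochondrial counterpart of eEF1A, went from 364 and 369 CPM to 318 and 314 CPM (−0.21, edgeR adjusted p = 2.273e-04). GFM1, a mitochondrial elongation factor G, was called lower at −0.14 (edgeR adjusted p = 0.03), and this call was lost under 7 of 14 alternatives.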
